A study of Homo sapiens with 16 samples.

Results

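Phase II conjugation enzymes couple a polar group to drugs, bile acids, steroids and lipid oxidation products. Their genes were followed here in HepG2 cells, a line from a human liver tumour, after exposure to a trans, a cis or a saturated fatty acid. The genes were matched by symbol, under a rule chosen with earlier results of these data known. They were cytosolic, kappa and microsomal glutathione transferases (GST and MGST), UDP-glucuronosyltransferases of families 1 and 2 (UGT) and sulfotransferases (SULT). The rule found 34 of the 30968 probes on the array, for 29 gene symbols. They comprised 18 glutathione transferase probes for 14 symbols, 5 glucuronosyltransferase probes for 5 symbols and 11 sulfotransferase probes for 10 symbols.

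The 16 samples formed 4 groups of 4 biological replicates: elaidic acid (trans), oleic acid (cis), stearic acid (saturated) and a control without added fatty acid. The acids were used at 100 µM over 7 days, and all 4 groups were kept without serum. Amplified RNA was labelled with Cy5 and hybridised to 1-colour arrays, with 2 technical replicates named per sample and 1 deposited value per probe and sample. All samples came from 1 cell line, so the p-values measure the spread between these cultures and their arrays and not between people.

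Glutathione transferases attach the tripeptide glutathione to electrophiles, and several also reduce lipid peroxides. Glucuronosyltransferases sit in the endoplasmic reticulum and transfer glucuronic acid from UDP-glucuronic acid, whereas sulfotransferases act in the cytosol with the sulfate donor PAPS. The liver is a main site of all 3 reactions, and the products leave the hepatocyte through export pumps into bile and blood.

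Levels below are log2 of the quantile-normalised intensity, and a change is a difference of such levels. A level compares samples for 1 probe and does not rank different genes. Of the 34 probes, 28 (26 symbols) had a value above 0 in all samples and entered the test, which was limma over 22939 probes with Benjamini-Hochberg adjustment. A probe passed at an adjusted p under 0.05. The other 6 were GSTZ1, SULT1C3, SULT4A1 and the second probes of GSTT1, GSTM3 and SULT1C4, and they are taken up after the families. The GSTM, UGT1A, UGT2B and SULT1 families hold near-identical copies, and probe sequences were not used here, so a signal named for one copy may include another.

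Array brightness and slide origin differed between samples. Median intensity ran from 19.95 to 76.1, and the 2 dimmest arrays were oleic acid replicate 4 (20.7) and control replicate 1 (19.95). After normalisation, 11 of the 28 members were lowest of the oleic acid samples in replicate 4 (28.4% of all tested probes), and 10 were lowest of the control samples in replicate 1 (30.1% of all tested probes). Array numbers in the labels fell into 2 ranges, called series A and series B here. Series A held elaidic acid replicates 2 and 4 and every oleic acid and control sample, and series B held elaidic acid replicates 1 and 3 and every stearic acid sample. Stearic acid therefore cannot be told apart from series B in its contrasts with oleic acid and control, except by way of the elaidic acid samples, which is what the fit with series as a block does. Within elaidic acid, both series B samples were above both series A samples for 14 of the 28 members and below them for 9. The same held for 30.4% and 38.5% of all tested probes (68.9% together). This series difference is part of the spread within elaidic acid, and so of the error that the fit by group shares among all contrasts.

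The hepatocyte markers with a probe (9 of 10, ALB not among them) had summed raw intensities of 117797 to 221536 with elaidic acid, 49294 to 104063 with oleic acid, 184366 to 224833 with stearic acid and 53581 to 129050 in control. Of these 9 genes, 1 was higher with elaidic acid than in control (TTR) and 5 were higher with stearic acid, with median log2 changes of 0.86 and 1.09. Of all probes, 0.305% were called higher with elaidic acid and 15% with stearic acid. With slide series as a block none of the 9 passed, and the medians were 0.45 and 0.44. Of 11 markers of other cell types, 9 had a probe, and their raw sum was 6644 to 20554 with elaidic acid, 6240 to 12167 with oleic acid, 24831 to 34296 with stearic acid and 4204 to 16871 in control. Most of that sum was KRT19, a keratin of bile duct cells, and CD14. PTPRC, which marks blood cells, stayed between 14.5 and 33.6, PECAM1 of endothelium between 3.2 and 34, and COL3A1 of fibroblasts was at or below 0 in 5 samples. COL1A1, the other collagen gene on the list, read 123 to 390, and DES read 76 to 164, with no value at or below 0. On the normalised scale 7 of these markers were tested, and none was higher with elaidic or stearic acid than in control. With stearic acid 1 was lower (DES), beside 14.8% of all probes called lower. The median change was -0.14 with each of these acids. These raw sums carry the differences in array brightness, and their part in the changes below was not tested.

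**Figure D1:**
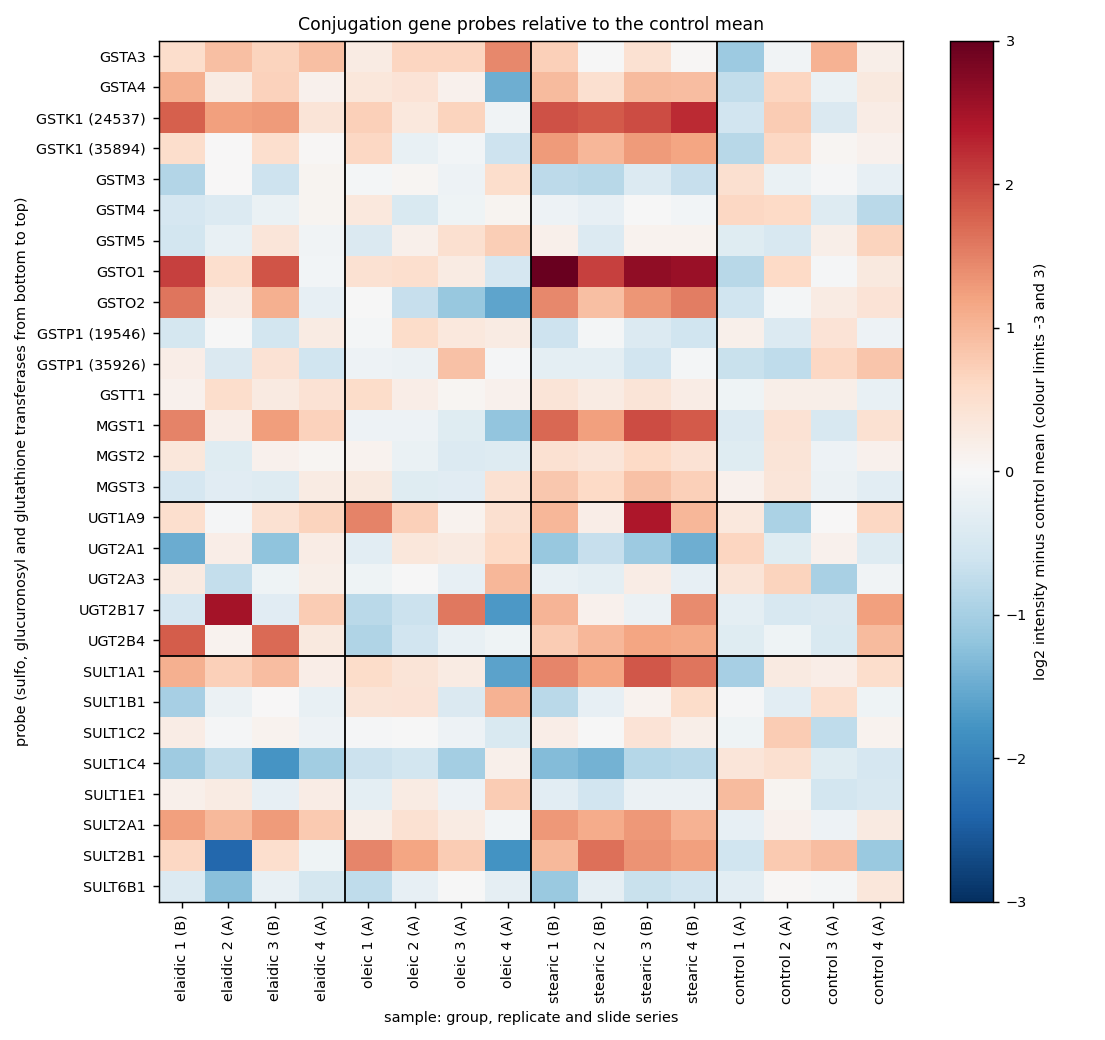
Rows are the 28 tested member probes, ordered glutathione, glucuronosyl and sulfo transferases from top to bottom, and columns are the 16 samples with their replicate and slide series. Colour gives the log2 intensity minus the mean of the 4 control samples. GSTO1, MGST1 and both GSTK1 probes were high in all 4 stearic acid samples, SULT2A1 was high in all elaidic and stearic acid samples, and UGT2B4, GSTO1 and GSTO2 split the elaidic acid samples by series.

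Against control, 1 of the 28 members passed with elaidic acid, none with oleic acid and 10 with stearic acid. The single member that rose with elaidic acid was SULT2A1, against a background of 0.323% of all probes called in that contrast and 0.305% called higher. With oleic acid no member and 0% of all probes passed, and no member reached an unadjusted p under 0.05 (602 of all probes did). With stearic acid 8 probes rose and 2 fell, for 9 symbols, while 29.8% of all probes were called (15% higher and 14.8% lower). The members' share, 10 of 28, was thus near the background of that contrast.

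The members' median log2 change was 0.07 with elaidic acid, 0.11 with oleic acid and 0.38 with stearic acid, beside -0.10, 0.01 and -0.18 over all tested probes. Members lay above control for 16, 16 and 17 of 28 probes in the same order of acids. With series as a block no member passed in any of the 6 contrasts, while of all probes 0.0392% passed for elaidic acid against control, 0.0218% for elaidic against oleic acid, 0.00436% for elaidic against stearic acid and 0% in the other contrasts. In that fit 4 members for elaidic acid, 1 for oleic acid and 5 for stearic acid had an unadjusted p under 0.05 against control. Of all 22939 probes, 1497, 759 and 1710 did so in the same order of acids.

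The 4 samples of a group lay wholly above or below the 4 of control for few members except with stearic acid. With elaidic acid this held for SULT2A1, which was higher (3.82% of all probes), and SULT1C4, which was lower (2.68% of all probes), 2 of 28 members beside 6.5% of all probes. With oleic acid it held for no member, beside 1.23% of all probes. With stearic acid it held for 10 members that were higher and 3 that were lower, beside 18.7% and 18.9% of all probes (37.6% together). These 13 were the 10 called probes and SULT2B1, GSTT1 and GSTM3.

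**Figure D2:**
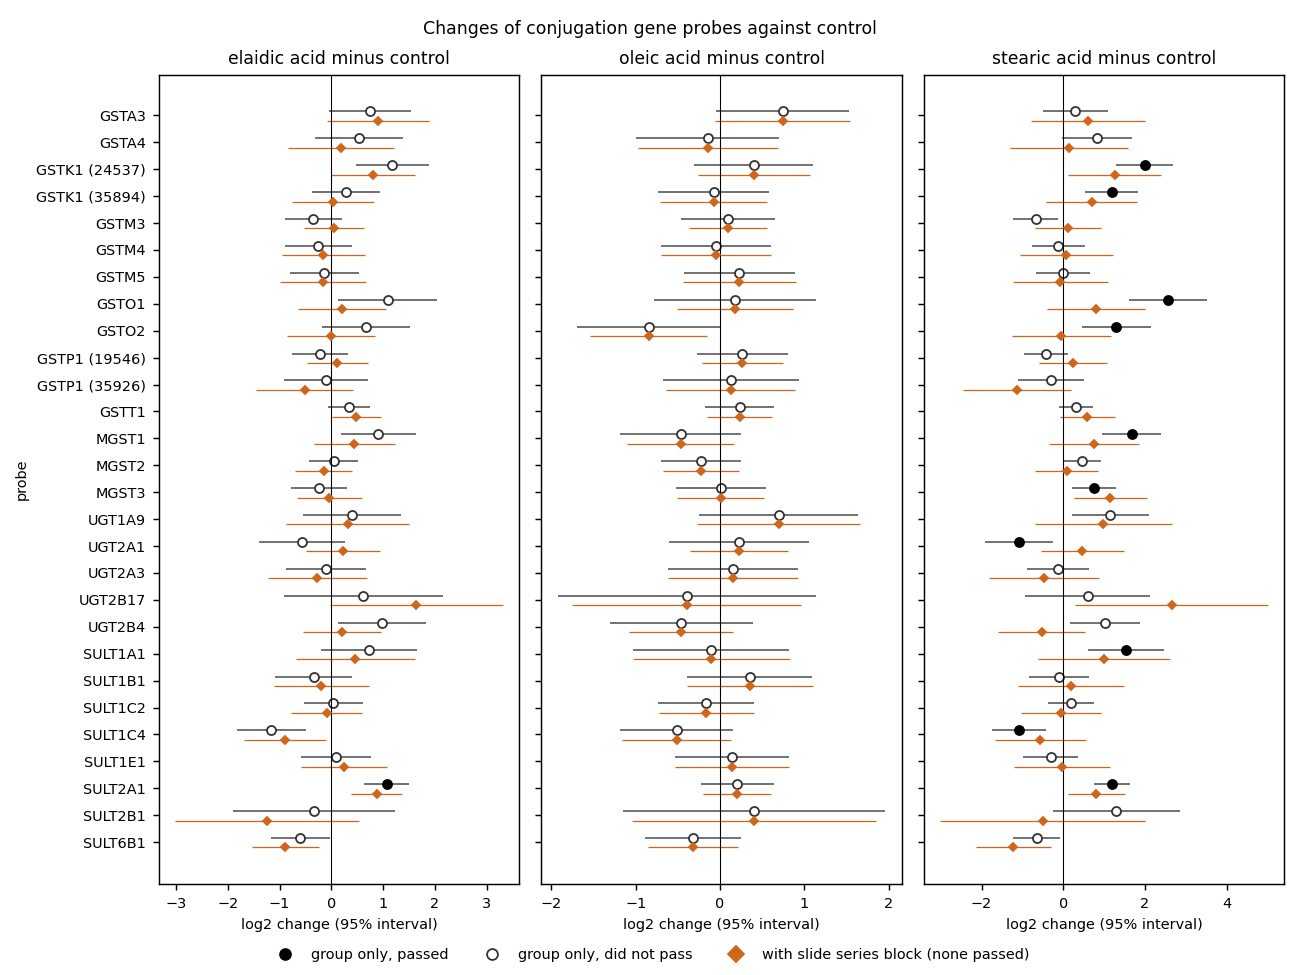
Each row is 1 tested member probe, and each panel gives the log2 change of 1 acid minus control with its 95% interval, on an x axis of its own range. Circles are the fit by group, filled where the adjusted p was under 0.05, and diamonds are the fit with slide series as a block. SULT2A1 is the filled circle for elaidic acid, no circle is filled for oleic acid, 10 are filled for stearic acid, and none of the diamonds passed.

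Among glutathione transferases, 6 of 15 tested probes rose with stearic acid against control and none fell, beside 15% of all probes called higher and 14.8% called lower. None of the 6 calls held with series as a block. They were GSTO1, GSTO2, MGST1, MGST3 and both probes of GSTK1, and the family's median log2 change was 0.46. None of the 15 passed with elaidic acid (median 0.27) or with oleic acid (median 0.09).

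GSTO1, an omega-class enzyme that reduces rather than conjugates many of its substrates, showed the largest rise among the members in the fit by group alone. The 250 bases before its start are shown because they hold 2 matches to the core of the antioxidant response element, the site through which NRF2 drives many conjugation genes. They come from the RefSeq promoter table for GRCh38.p14, chr10:104254642-104254891, plus strand, and capitals mark the matches to TGACNNNGC and to TATAAA, which lies on the minus strand.
GSTO1: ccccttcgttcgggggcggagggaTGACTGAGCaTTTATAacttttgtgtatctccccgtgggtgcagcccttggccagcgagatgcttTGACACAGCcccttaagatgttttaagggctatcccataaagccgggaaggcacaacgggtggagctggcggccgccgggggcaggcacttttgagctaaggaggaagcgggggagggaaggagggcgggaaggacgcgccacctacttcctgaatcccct
On both strands TGACNNNGC occurred in 10.9% of 35116 promoters of this length, and in 5 of the 26 promoters found for 23 of the 29 member symbols (GSTA4, GSTM5, GSTO1, GSTP1 and SULT1C2). Of these 5 genes, only GSTO1 passed against control with any acid. TATAAA occurred in 10.7% of all promoters and 7 member promoters, GTTAAT, part of the HNF1 site, in 6.23% and 4 member promoters of 3 genes, and TCACNCCAC, a form of the sterol response element, in 0.883% and no member promoter. A match describes the letters of the window and not a bound site.

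The level of GSTO1 was 8.66, 7.11, 8.51 and 6.53 with elaidic acid, 7.06, 7.12, 6.86 and 6.12 with oleic acid, 9.58, 8.65, 9.27 and 9.20 with stearic acid, and 5.77, 7.20, 6.58 and 6.90 in control, in order of replicates 1 to 4. All stearic acid samples were above all control samples. Elaidic acid replicates 1 and 3, which share series B with stearic acid, were 1.76 higher on average than replicates 2 and 4. The change was 2.57 ± 0.45 (SE, 5.92-fold, adjusted p 0.0020) with stearic acid, and 0.80 ± 0.56 (adjusted p 0.88) with series as a block. With elaidic acid the change was 1.09 ± 0.45 (adjusted p 0.30), and 0.21 ± 0.40 with the block.

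GSTO2, the neighbour and paralog of GSTO1, followed the same split. Its level was 6.75, 5.36, 6.20 and 4.90 with elaidic acid, 5.13, 4.45, 4.01 and 3.56 with oleic acid, 6.57, 6.03, 6.47 and 6.67 with stearic acid, and 4.54, 5.08, 5.39 and 5.54 in control. The stearic acid samples did not overlap control, and within elaidic acid series B was 1.35 higher than series A. The stearic acid change of 1.30 ± 0.40 (adjusted p 0.027) turned to -0.047 ± 0.56 with the block, and it did not pass without control replicate 1 or stearic acid replicate 1, 3 or 4.

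MGST1, a membrane enzyme of the endoplasmic reticulum and mitochondria that also reduces lipid hydroperoxides, stood at 9.20, 7.91, 8.98 and 8.40 with elaidic acid and 7.56, 7.56, 7.34 and 6.53 with oleic acid. It stood at 9.43, 8.95, 9.66 and 9.55 with stearic acid and 7.31, 8.14, 7.24 and 8.17 in control. The stearic acid samples were above every oleic acid and control sample, and the elaidic acid samples were above every oleic acid sample but overlapped control. The change with stearic acid was 1.68 ± 0.34 (adjusted p 0.0040; 0.75 ± 0.52, adjusted p 0.87 with the block), and with elaidic acid it was 0.91 ± 0.34 (adjusted p 0.26; 0.44 ± 0.37 with the block).

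GSTK1, the kappa-class enzyme of mitochondria and peroxisomes, was measured by 2 probes that both rose with stearic acid. The dimmer probe (PH_hs_0024537) read 6.58, 6.01, 6.07 and 5.18 with elaidic acid, 5.50, 5.10, 5.44 and 4.69 with oleic acid, 6.69, 6.63, 6.75 and 7.02 with stearic acid, and 4.21, 5.55, 4.35 and 5.02 in control. The brighter probe (PH_hs_0035894) read 8.62, 8.10, 8.59 and 8.13 with elaidic acid, 8.70, 7.87, 8.01 and 7.46 with oleic acid, 9.36, 9.08, 9.37 and 9.26 with stearic acid, and 7.26, 8.71, 8.15 and 8.22 in control. Both placed every stearic acid sample above every other sample. Their changes against control were 1.99 ± 0.33 (adjusted p 0.0016) and 1.18 ± 0.31 (adjusted p 0.013), and with the block they were 1.25 ± 0.54 (adjusted p 0.61) and 0.69 ± 0.52. With elaidic acid the dimmer probe was 1.18 ± 0.33 above control (adjusted p 0.16), while the brighter one was within its error of control.

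MGST3, a microsomal enzyme with glutathione peroxidase activity towards lipid hydroperoxides, was the only member called higher with stearic acid for which the elaidic acid samples of series B were not above those of series A. Its upstream sequence is shown because the series B elaidic acid samples did not share the rise (GRCh38.p14, chr1:165630984-165631233, plus strand), and it held none of the 4 motifs searched.
MGST3: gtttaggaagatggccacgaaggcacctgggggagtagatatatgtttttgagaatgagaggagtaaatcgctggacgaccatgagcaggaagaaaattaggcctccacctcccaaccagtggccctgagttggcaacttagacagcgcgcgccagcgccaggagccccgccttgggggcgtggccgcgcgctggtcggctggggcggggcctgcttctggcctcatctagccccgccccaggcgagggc
The level of MGST3 was 10.16, 10.33, 10.26 and 10.92 with elaidic acid, 10.95, 10.29, 10.31 and 11.12 with oleic acid, 11.47, 11.26, 11.53 and 11.37 with stearic acid, and 10.78, 11.03, 10.48 and 10.35 in control. The 4 stearic acid samples lay above the other 12, and the elaidic, oleic and control samples overlapped. Series B elaidic acid samples averaged 0.41 lower than those of series A (log2 difference -0.41). The change with stearic acid was 0.75 ± 0.25 (95% interval 0.21 to 1.28, adjusted p 0.038), and 1.15 ± 0.42 (0.26 to 2.04, adjusted p 0.49) with the block. The call was lost without control replicate 1, 3 or 4 or any of the 4 stearic acid replicates (adjusted p 0.051 to 0.0895), with the change between 0.64 and 0.87 over all 8 omissions. The direct comparison within series B, elaidic acid minus stearic acid, was -1.19 ± 0.29 (-1.82 to -0.56, adjusted p 0.34).

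MGST2, which makes leukotriene C4 besides acting on lipid hydroperoxides, had the highest raw intensity of the members' probes (mean 28406). Its level was 14.85, 14.17, 14.66 and 14.58 with elaidic acid, 14.62, 14.32, 14.11 and 14.13 with oleic acid, 14.99, 14.88, 15.12 and 14.96 with stearic acid, and 14.16, 14.92, 14.36 and 14.66 in control. Stearic acid overlapped control only at the lower edge of its range. It did not pass against control (0.46 ± 0.22, adjusted p 0.12, and 0.080 ± 0.36 with the block).

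The alpha, mu, pi and theta classes, which hold the classical cytosolic enzymes, had no member that passed against control with any acid. GSTA4, which conjugates the lipid peroxidation product 4-hydroxynonenal, stood at 8.69, 7.87, 8.31 and 7.75 with elaidic acid, 7.97, 8.05, 7.76 and 6.16 with oleic acid, 8.58, 8.10, 8.59 and 8.56 with stearic acid, and 6.88, 8.27, 7.44 and 7.93 in control. Its groups overlapped, and the change with stearic acid was 0.83 ± 0.40 (adjusted p 0.12), and 0.14 ± 0.67 with the block. GSTM3 stood at 9.82, 10.70, 10.09 and 10.79 with elaidic acid, 10.64, 10.75, 10.54 and 11.22 with oleic acid, 9.92, 9.86, 10.29 and 10.01 with stearic acid, and 11.17, 10.49, 10.67 and 10.45 in control. All stearic acid samples were below all control samples, yet the change did not pass (-0.67 ± 0.26, adjusted p 0.061, and 0.12 with the block).

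GSTP1, the pi-class enzyme often abundant in tumours, was read by 2 probes. The brighter one (PH_hs_0019546) read 8.66, 9.19, 8.65 and 9.43 with elaidic acid, 9.14, 9.75, 9.52 and 9.44 with oleic acid, 8.58, 9.14, 8.77 and 8.61 with stearic acid, and 9.36, 8.78, 9.60 and 9.04 in control. The dimmer one (PH_hs_0035926) averaged 6.81 ± 0.49 with elaidic acid, 7.03 ± 0.51 with oleic acid, 6.60 ± 0.21 with stearic acid and 6.91 ± 0.84 in control (SD, n = 4). The 2 probes differed in direction between the elaidic acid series: the dimmer one was 0.83 higher in series B, while the brighter one was lower there. GSTT1, the theta-class enzyme, stood at 11.05, 11.43, 11.18 and 11.35 with elaidic acid, 11.47, 11.11, 10.96 and 11.03 with oleic acid, 11.30, 11.16, 11.30 and 11.13 with stearic acid, and 10.79, 11.08, 11.09 and 10.69 in control. Its stearic acid samples were just above the control range, and its changes against control were 0.34 ± 0.19, 0.23 ± 0.19 and 0.31 ± 0.19 with elaidic, oleic and stearic acid, the last being 0.59 ± 0.31 with the block. GSTA3, GSTM4 and GSTM5 had adjusted p-values of 0.37 or more against control with each acid.

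**Figure D3:**
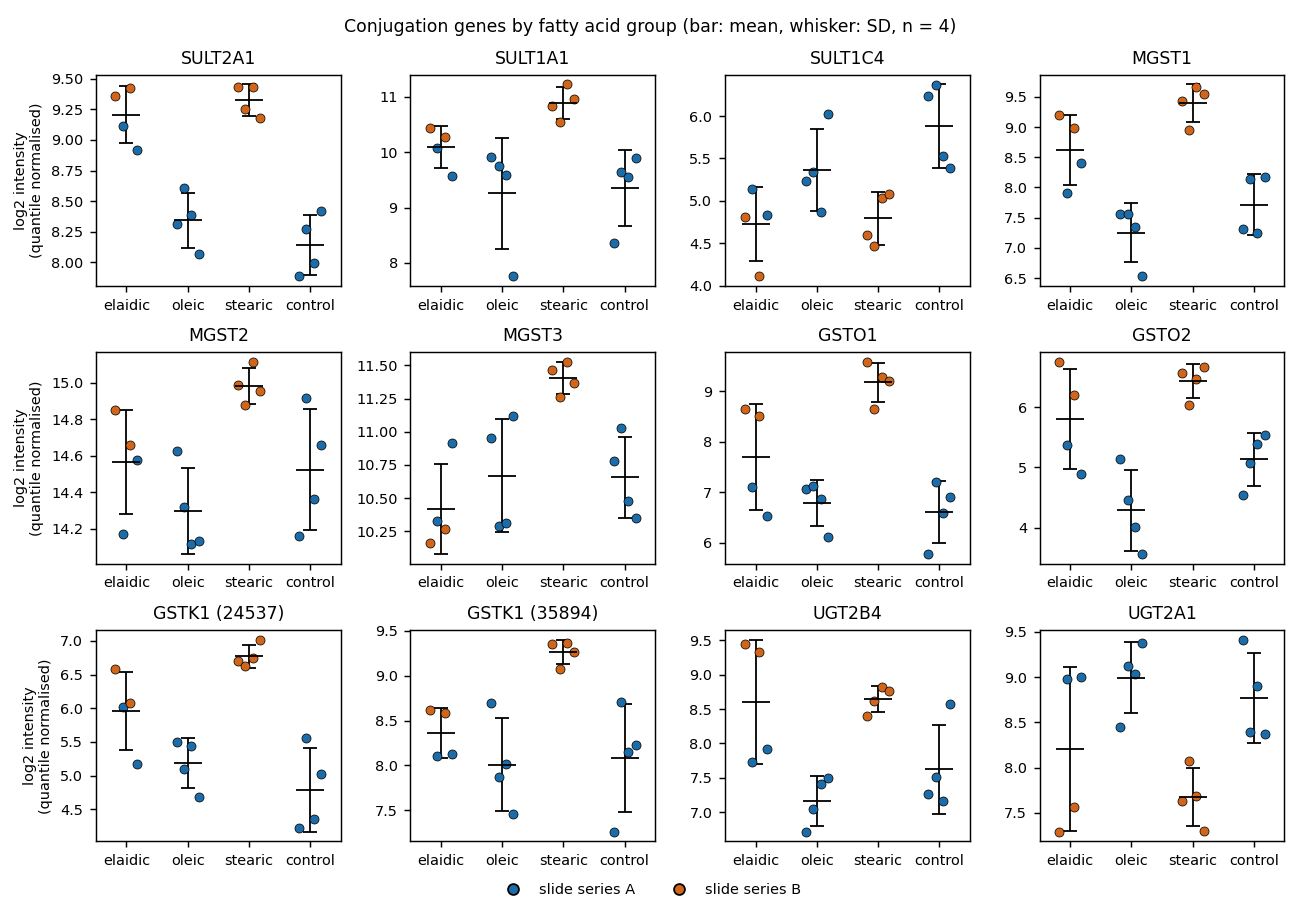
Each panel plots the log2 intensity of 1 probe in the 16 samples by group, coloured by slide series, with the group mean as a bar and the SD as a whisker (n = 4). The y axes do not start at 0 and differ between panels. SULT2A1 was above every control sample in all 4 elaidic acid samples of both series, MGST3 was high with stearic acid but not in the series B samples with elaidic acid, and GSTO1, UGT2B4 and UGT2A1 separated the elaidic acid samples by series.

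Of the 5 glucuronosyltransferases, all of which were tested, 1 fell with stearic acid (UGT2A1) and none passed with elaidic or oleic acid. With stearic acid 14.8% of all probes were called lower and 29.8% in either direction. The UGT2A1 call did not hold with series as a block. The family's median log2 changes against control were 0.40, 0.15 and 0.60 with elaidic, oleic and stearic acid. UGT1A1, UGT1A6, UGT2B7, UGT2B10 and UGT2B15, the enzymes best known for bilirubin, phenols, morphine and androgens, had no probe under these symbols and were not analysed here.

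UGT2A1, known as an enzyme of the nasal epithelium, stood at 7.29, 8.98, 7.57 and 9.00 with elaidic acid, 8.45, 9.12, 9.04 and 9.37 with oleic acid, 7.64, 8.08, 7.69 and 7.30 with stearic acid, and 9.41, 8.39, 8.90 and 8.37 in control. The stearic acid samples and the series B elaidic acid samples were low, and the other 10 samples were high. The change with stearic acid was -1.09 ± 0.39 (adjusted p 0.046), and 0.47 ± 0.47 with the block. The call was also lost without control replicate 1 (-0.88, adjusted p 0.15), without control replicate 3 or stearic acid replicate 1, 3 or 4, and without the 2 dimmest arrays. Without normalisation it was lost as well. Within elaidic acid the series B samples were lower by a log2 difference of -1.56.

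UGT2B4, which glucuronidates bile acids and catechol estrogens in liver, stood at 9.44, 7.74, 9.33 and 7.92 with elaidic acid, 6.72, 7.04, 7.41 and 7.49 with oleic acid, 8.40, 8.62, 8.82 and 8.76 with stearic acid, and 7.27, 7.51, 7.16 and 8.57 in control. Both series B elaidic acid samples were above all 4 stearic acid samples of that series. Both series A elaidic acid samples were above all 4 oleic acid samples and below 1 control sample. The changes against control did not pass with elaidic acid (0.98 ± 0.40, adjusted p 0.30) or stearic acid (1.02 ± 0.40, adjusted p 0.062), and with the block they were 0.20 and -0.53.

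UGT1A9, which conjugates bulky phenols, was a dim probe (mean raw intensity 16.9) at 3.71, 3.16, 3.65 and 3.87 with elaidic acid, 4.69, 3.92, 3.30 and 3.67 with oleic acid, 4.19, 3.39, 5.62 and 4.19 with stearic acid, and 3.51, 2.24, 3.21 and 3.83 in control. The groups overlapped, and the stearic acid change was 1.15 ± 0.44 (adjusted p 0.060). UGT2B17, an androgen-conjugating enzyme, was likewise dim (35.4) and spread widely, at 3.83, 6.83, 4.0 and 5.10 with elaidic acid and 3.53, 3.68, 5.90 and 2.61 with oleic acid. It read 5.35, 4.47, 4.15 and 5.75 with stearic acid and 4.02, 3.84, 3.90 and 5.55 in control, and none of its changes passed. Against control the change was 0.61 ± 0.72 with elaidic acid and 0.60 ± 0.72 with stearic acid. With the block these were 1.64 ± 0.78 (adjusted p 0.78) and 2.65 ± 1.10 (adjusted p 0.58). UGT2A3 was bright (mean raw intensity 4560) and averaged 11.99 ± 0.44 with elaidic acid, 12.24 ± 0.57 with oleic acid, 11.95 ± 0.24 with stearic acid and 12.09 ± 0.72 in control (SD, n = 4), with overlapping groups.

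Among the 8 tested sulfotransferases, SULT2A1 rose with elaidic acid, and SULT2A1 and SULT1A1 rose and SULT1C4 fell with stearic acid. Of all probes, 0.305% were called higher with elaidic acid, and 15% higher and 14.8% lower with stearic acid. None of these sulfotransferase calls held with series as a block. None passed with oleic acid. The family's median log2 changes against control were -0.15, 0.02 and 0.05 with elaidic, oleic and stearic acid.

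SULT2A1 sulfates bile acids and dehydroepiandrosterone and is the hydroxysteroid sulfotransferase of liver and adrenal. Its upstream sequence is shown because SULT2A1 was the only member called with elaidic acid against control, and it was called with stearic acid as well. The sequence (GRCh38.p14, chr19:47886316-47886565, minus strand) held none of the 4 motifs searched.
SULT2A1: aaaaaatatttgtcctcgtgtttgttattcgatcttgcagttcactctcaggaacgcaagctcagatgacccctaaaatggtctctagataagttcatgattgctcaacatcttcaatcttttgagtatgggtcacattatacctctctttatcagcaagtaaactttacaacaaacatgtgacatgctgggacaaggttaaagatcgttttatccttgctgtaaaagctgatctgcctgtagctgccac
The level of SULT2A1 was 9.36, 9.11, 9.43 and 8.92 with elaidic acid, 8.31, 8.61, 8.38 and 8.07 with oleic acid, 9.44, 9.26, 9.44 and 9.18 with stearic acid, and 7.88, 8.27, 7.99 and 8.42 in control. Every elaidic and stearic acid sample was above every oleic acid and control sample, and this held for the elaidic acid samples of each series. Oleic acid and control overlapped.

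The change of SULT2A1 with elaidic acid was 1.07 ± 0.20 (2.09-fold, 95% interval 0.63 to 1.50, adjusted p 0.039). It was 0.88 ± 0.23 (0.38 to 1.37, adjusted p 0.29) with series as a block, which is the difference of 2 against 4 samples within series A. The call also rested on single samples, since the adjusted p was 0.059 to 0.154 without control replicate 1, 2 or 3 or elaidic acid replicate 1, 2 or 3, while the change stayed between 0.98 and 1.16. With stearic acid the change was 1.19 ± 0.20 (2.28-fold, adjusted p 0.0018), and 0.81 ± 0.33 (adjusted p 0.56) with the block. With oleic acid it was 0.20 ± 0.20 (-0.23 to 0.64, adjusted p 1).

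SULT1A1, the main phenol sulfotransferase of liver, stood at 10.43, 10.08, 10.28 and 9.56 with elaidic acid, 9.92, 9.75, 9.59 and 7.76 with oleic acid, 10.83, 10.54, 11.23 and 10.96 with stearic acid, and 8.35, 9.64, 9.56 and 9.89 in control. The stearic acid samples were above all others, and the lowest values of oleic acid and control fell in the 2 dimmest arrays. The change with stearic acid was 1.53 ± 0.44 (adjusted p 0.019), and 1.0 ± 0.75 (adjusted p 0.90) with the block. Without control replicate 1, 1 of the dimmest arrays, it was 1.2 (adjusted p 0.068), and it also did not pass without stearic acid replicate 3.

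SULT1C4 was dim (mean raw intensity 38.5) and stood at 4.81, 5.14, 4.11 and 4.83 with elaidic acid, 5.23, 5.34, 4.87 and 6.02 with oleic acid, 4.59, 4.46, 5.04 and 5.08 with stearic acid, and 6.24, 6.37, 5.53 and 5.39 in control. Elaidic and stearic acid samples were below every control sample. The change passed with stearic acid (-1.09 ± 0.31, adjusted p 0.020, but 0.050 to 0.063 without control replicate 1 or stearic acid replicate 1 or 2) and not with elaidic acid (-1.16 ± 0.31, adjusted p 0.14). With the block the changes were -0.56 ± 0.52 and -0.89 ± 0.37 (adjusted p 0.67). Without normalisation no member was called lower with stearic acid against control, so this call was lost there too. The second SULT1C4 probe, left out of the test, changed by 0.10 ± 0.093 with stearic acid on a log2 scale with an offset of 50. SULT6B1 read 7.59, 6.75, 7.77 and 7.46 with elaidic acid, 7.22, 7.76, 7.99 and 7.73 with oleic acid, 6.89, 7.74, 7.33 and 7.42 with stearic acid, and 7.68, 8.03, 7.94 and 8.33 in control. Its change did not pass with elaidic acid (-0.60 ± 0.27, adjusted p 0.33; -0.89 ± 0.30, adjusted p 0.52 with the block) or with stearic acid (-0.65 ± 0.27, adjusted p 0.074; -1.23 ± 0.43, adjusted p 0.48 with the block).

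SULT1C2 averaged 9.30 ± 0.16 with elaidic acid, 9.10 ± 0.20 with oleic acid, 9.46 ± 0.17 with stearic acid and 9.26 ± 0.63 in control (SD, n = 4). SULT1E1, the estrogen sulfotransferase, averaged 6.44 ± 0.23, 6.49 ± 0.48 and 6.04 ± 0.19 with elaidic, oleic and stearic acid and 6.35 ± 0.69 in control. Neither SULT1C2 nor SULT1E1 passed, and their groups overlapped. SULT2B1, which sulfates cholesterol, was the dimmest tested member (15.1) and ranged from 0.75 to 3.73 with elaidic acid, 1.32 to 4.57 with oleic acid, 4.09 to 4.76 with stearic acid and 2.01 to 4.05 in control. Its stearic acid change of 1.30 ± 0.73 did not pass (adjusted p 0.17), and its sign turned with the block (-0.51 ± 1.17).

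**Figure D4:**
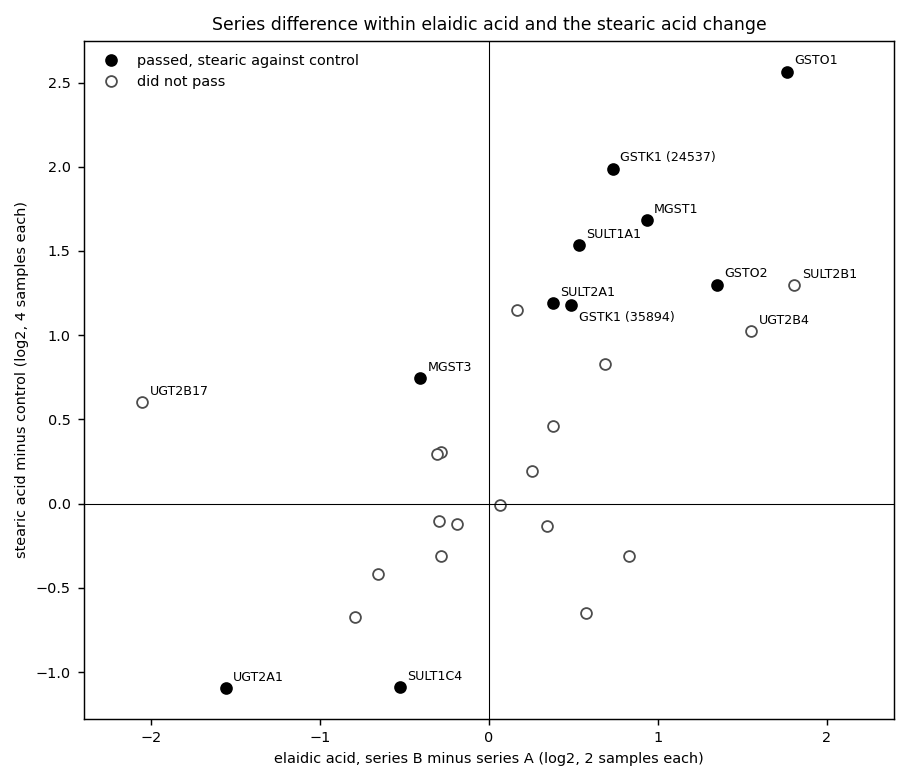
Each point is 1 tested member probe. The x axis is the log2 difference between the 2 series B and the 2 series A samples with elaidic acid, the y axis is the log2 change with stearic acid against control (4 samples each), and filled points passed that stearic acid test. Of the 8 filled points above 0, 7 had both series B elaidic acid samples above both series A samples, MGST3 being the exception, and the filled points below 0 (UGT2A1 and SULT1C4) lay left of 0.

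The stearic acid rises and the slide series moved together in most of these genes, as the plot of the series difference shows. Of the 8 member probes that rose with stearic acid, 7 had both series B elaidic acid samples above both series A samples. Among all probes called higher with stearic acid this share was 81.2%. Both members that fell were lower in series B, beside 79.3% of all probes called lower. Comparisons within 1 series were free of this. Within series A, elaidic acid did not overlap control for 4 of 28 members (GSTT1 and SULT2A1 higher, SULT1C4 and SULT6B1 lower), beside 12.9% of all probes (7.17% higher and 5.72% lower).

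The 3 acids share a chain of the same length, and oleic and elaidic acid differ in the cis or trans form of 1 double bond, which stearic acid lacks. All 3 pairs were compared at the same dose and time. Between elaidic and oleic acid, 5 of 28 members had an unadjusted p under 0.05, beside 4342 of all 22939 probes. No member was called, beside 0.318% of all probes. SULT2A1 came nearest with a change of 0.86 ± 0.20 (0.43 to 1.30, adjusted p 0.097), and 0.67 ± 0.23 (adjusted p 0.61) within series A. MGST1 differed by 1.38 ± 0.34 (0.65 to 2.10, adjusted p 0.11), UGT2B4 by 1.44 ± 0.40 (adjusted p 0.14) and GSTO2 by 1.52 ± 0.40 (adjusted p 0.13). With the block these 3 differences were smaller, at 0.91 ± 0.37 for MGST1, 0.66 ± 0.35 for UGT2B4 and 0.84 ± 0.40 for GSTO2. For UGT2B17 the difference was 1.01 ± 0.72 (adjusted p 0.41), and 2.04 ± 0.78 (adjusted p 0.72) with the block. SULT2A1, MGST1 and UGT2B4 were the members whose 4 elaidic acid samples all lay above all oleic acid samples, beside 4.07% of all probes higher in this way and 7.08% separate in either direction. Within series A the same 3 were higher and the dimmer GSTP1 probe was lower, 4 of 28 members beside 12.6% of all probes (6.29% in each direction). For GSTT1 the difference was 0.11 (-0.30 to 0.52) and for MGST2 0.27 (-0.20 to 0.74), intervals that leave out a doubling (1 on this scale).

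Elaidic against stearic acid likewise gave no call, beside 0.397% of all probes. An unadjusted p under 0.05 was reached by 6 of 28 members, beside 3330 of all 22939 probes. MGST3 differed by -0.99 ± 0.25 (-1.52 to -0.45, adjusted p 0.099), GSTO1 by -1.48 ± 0.45 (adjusted p 0.16) and the brighter GSTK1 probe by -0.91 ± 0.31 (adjusted p 0.21). Within series B, MGST3 differed by -1.19, GSTO1 by -0.60 with overlapping samples, and that GSTK1 probe by -0.66. SULT2A1 differed by -0.12 (-0.56 to 0.31), an interval that leaves out a doubling either way. Over all 8 samples, elaidic acid lay wholly below stearic acid for 6 members (MGST2, MGST3, both GSTK1 probes, SULT1A1 and SULT2B1), beside 7.13% of all probes lower and 11.9% separate in either direction. Within series B, elaidic acid lay wholly below stearic acid for 7 members (MGST2, MGST3, both GSTK1 probes, SULT1A1, SULT2B1 and UGT2B17) and wholly above it for UGT2B4 and the dimmer GSTP1 probe. That is 9 of 28 members, beside 23.4% of all probes (11.1% higher and 12.3% lower).

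Oleic against stearic acid gave 13 member calls, 3 higher and 10 lower with oleic acid, for 12 symbols, beside 39.5% of all probes (21% higher and 18.4% lower). The groups did not overlap for 2 members that were higher and 12 that were lower, beside 23.5% and 21.2% of all probes (44.7% together). The lower ones were GSTO1 (-2.39 ± 0.45, adjusted p 0.0027), GSTO2 (-2.15 ± 0.40, adjusted p 0.0026), MGST1 (-2.15 ± 0.34, adjusted p 0.0012), SULT1A1, SULT2A1 (-0.99 ± 0.20, adjusted p 0.0039), UGT2B4 (-1.49 ± 0.40, adjusted p 0.013), both GSTK1 probes, MGST2 and MGST3. The higher ones were UGT2A1 (1.32 ± 0.39, adjusted p 0.019), GSTM3 (0.77 ± 0.26, adjusted p 0.033) and the brighter GSTP1 probe (0.69 ± 0.25, adjusted p 0.044). These groups lie in different series throughout. With the block no member passed, and UGT2B4 (0.068), UGT2A1 (-0.24) and GSTM3 (-0.024) changed sign. Without normalisation the calls for GSTM3 (-0.083) and GSTP1 (-0.018) were lost with a change of sign as well.

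Genes around the conjugation step were described from 6 lists, each gene by its brightest probe. With elaidic or oleic acid no gene of any list passed against control. With stearic acid, 4 of the 7 tested genes that supply cofactors rose and none fell (median change 1.26), in a contrast where 29.8% of all probes were called and 15% were called higher. They were UGDH, which makes UDP-glucuronic acid (1.34 ± 0.37, adjusted p 0.017), the glutathione synthetase GSS (1.26 ± 0.29), the glutathione reductase GSR (1.67 ± 0.35) and SLC35B2, a carrier of PAPS into the Golgi (1.09 ± 0.22, adjusted p 0.0037). With the block the list's median was 0.74 and none passed. With elaidic acid all 7 lay above control without a call (median 0.74, and 0.57 with the block), with UGDH at 1.11 ± 0.37 and GSR at 0.99 ± 0.35.

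The calls of the other lists with stearic acid against control stand beside 29.8% of all probes called (15% higher and 14.8% lower). None of them held with series as a block. Of 7 other conjugating enzymes, 3 rose with stearic acid: the nicotinamide methyltransferase NNMT (1.88 ± 0.30, adjusted p 0.0013), the histamine methyltransferase HNMT (1.82) and the arylamine acetyltransferase NAT1 (0.70). Of 6 genes that remove conjugates, the peptidase ANPEP (0.91) and the sulfatase ARSA (1.36) rose. Of 4 exporters, ABCC1 rose (1.47) and ABCC3 fell (-0.71). Of 11 regulators, KEAP1, which holds NRF2 in check (2.67), and RXRA (1.44) rose, while the aryl hydrocarbon receptor AHR (-0.91), its partner ARNT (-1.49) and PPARA (-0.93) fell. Of 7 related transferases outside the rule, TPST1 rose (1.79) and UGT8 (-1.78) and GSTCD (-0.87) fell.

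With elaidic acid the smallest p-values in those lists belonged to NNMT (1.33 ± 0.30, adjusted p 0.079) and HNMT (0.98), GUSB (0.44) and STS (0.75), ABCC3 (-0.61) and ABCC4 (0.44), the bile acid receptor NR1H4 (1.81) and NR1I2 (-0.48), and TPST1 (1.03) and TPST2 (0.45). None of these passed. Series as a block made no call in any of the 6 lists. For stearic acid against control the medians of the other 5 lists were then between -0.54 (export) and 0.09 (removal).

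The 6 members left out of the test had values at or below 0 in 1 to 8 samples. GSTZ1, which isomerises maleylacetoacetate in tyrosine breakdown, had raw intensities of 74.3, 4.0, 87.3 and -6.4 with elaidic acid, 12.6, 5.5, 9.1 and 8.3 with oleic acid, 59.3, 30.5, 26.4 and 61.6 with stearic acid, and -3.4, 10.4, 9.2 and 24.4 in control. All 6 series B samples read above all 10 series A samples, for elaidic acid as well as for stearic acid. On a log2 scale with an offset of 50, which admits every probe, GSTZ1 changed by 0.52 ± 0.23 with stearic acid against control (adjusted p 0.12) and none of the 6 probes passed in any contrast. SULT1C3 was at or below 0 in 8 samples, the second GSTM3 probe in 6, SULT4A1 in 3, the second SULT1C4 probe in 2 and the second GSTT1 probe in 1. GSTA1, GSTA2, GSTM1 and SULT1A2 had no probe under these symbols and were not analysed here.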

How the data were processed

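The authors deposited 1 linear intensity per probe and sample from Cy5-labelled 1-colour arrays, per the labels; values below 0 show that a background had been subtracted. The background method and how the 2 technical replicates were combined are not given in the sources used here. Groups and replicate numbers came from sample titles. Symbols came from the platform annotation (17397 of 30968 probes had 1 symbol, 13571 had none). After log2, probes that fell to 0 or lower anywhere were dropped (8029, 25.9%), and quantile normalisation was run on the other 22939. The 6 contrasts used limma 3.58.1 (R 4.3.3) with moderated two-sided tests over all 16 samples, adjusted by Benjamini-Hochberg over all probes; ± in changes is the model's standard error, and intervals are 95%. The test was tested on simulated data. Those data held no slide series difference, so they do not speak to its effect on the calls. Precision is limited by how many arrays there are. Array numbers in the labels defined the slide series used as a block. Alternatives were other scalings, filters and blocks and leaving out each replicate; leaving out the 2 dimmest arrays and adjusting over all 6 contrasts together were chosen after seeing the data. Members, gene lists and the rule for named genes were chosen with earlier results of these data known: named were called members, the 4 symbols of smallest p per family and a fixed set of well-known members, and from each list the called genes and the 2 of smallest p. Promoters and motifs were read from RefSeq tables with Python 3.11.15, and plots were drawn with matplotlib 3.10.9.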

Additional observations from a re-analysis of the deposited data

Results flagged for a closer look

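Of 112 groups of 4 samples (28 members in 4 groups), 7 held 1 sample far from the other 3, where chance gives about 1 in 20 groups. With oleic acid, replicate 4, 1 of the 2 dimmest arrays, was low for GSTA4 (6.16, against 7.76 to 8.05 in the others) and for SULT1A1 (7.76, against 9.59 to 9.92). Oleic acid replicate 3 was high for the dimmer GSTP1 probe (7.79, against 6.74 to 6.86). With stearic acid, replicate 2 was low for GSTM5 (7.67, against 8.18 to 8.23) and GSTA4 (8.10, against 8.56 to 8.59), and replicate 3 was high for UGT2A3 (12.31, against 11.79 to 11.87). In control, replicate 4 was high for UGT2B17 (5.55, against 3.84 to 4.02). All are levels in log2 of the normalised intensity.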

How the results depend on the processing

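Dim probes, 4 samples a group and slide series that coincide with stearic acid limit these results. With slide series as a block the member calls went to 0 for elaidic acid against control (from 1), stearic acid against control (from 10) and oleic against stearic acid (from 13). Of all probes, 9, 0 and 0 passed in these contrasts (from 74, 6825 and 9057). The sign then turned for GSTO2 (-0.047) and UGT2A1 (0.47) with stearic acid against control and for UGT2B4 (0.068), UGT2A1 (-0.24) and GSTM3 (-0.024) in oleic against stearic acid; without normalisation it turned in the last contrast for GSTM3 (-0.083) and GSTP1 (-0.018). The cause was not tested. Elaidic acid against control had 0 calls without normalisation, with a fit of only those 2 groups and without the 2 dimmest arrays, and 3 with adjustment over all 6 contrasts. Of all probes, 0, 0, 41 and 521 passed in the same order. Elaidic against oleic acid had 0 calls, but 1 (SULT2A1) with an offset of 50, 2 (SULT2A1 and MGST1) without the dimmest 50% of probes, and 4 with adjustment over all 6 contrasts. Of all probes, 209 of 30968, 180 of 11470 and 571 of 22939 then passed, beside 73 in the main fit. Elaidic against stearic acid had 0, but 1 under each of these 3 settings (MGST3 with the offset and without the dim probes). Of all probes, 581, 294 and 615 passed there, beside 91 in the main fit. Oleic against stearic acid had 8 with adjustment over all 6 contrasts, where 4822 of all probes passed.

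Leaving out 1 sample gave 0 to 1 calls for elaidic acid against control (25 to 115 of all probes) and 0 for elaidic against stearic acid (0 to 49). Elaidic against oleic acid had 0 to 1 (GSTO2 without elaidic acid replicate 4, with 191 of all probes). Stearic acid against control had 5 to 11, beside 6825 of all probes in the main fit. It had 5 without control replicate 1 (3576 of all probes), 6 without stearic acid replicate 1 or 3 (3571 and 4108) and 11 without control replicate 4 (8213). Oleic against stearic acid had 8 to 13, beside 9057 in the main fit. It had 8 without stearic acid replicate 4 (6077) and 13 without oleic acid replicate 1 (8520). The split into higher and lower calls moved with scaling. Stearic acid against control had 8 higher and 2 lower, against 9 and 0 without normalisation and 10 and 1 with median scaling, as the median of all probes moved from -0.18 to 0.26 and -0.24. Oleic against stearic acid had 3 higher and 10 lower, against 0 and 11 and 1 and 10, with all-probe medians of 0.21, -0.39 and 0.22. All probes called went from 6825 to 3099 and 6762 for stearic acid against control. For oleic against stearic acid they went from 9057 to 5125 and 8743. Oleic acid against control had 0 calls under every alternative run, beside at most 33 of all probes. The 33 member changes (13 genes) that passed or had a small unadjusted p in their contrast were recomputed 586 times. Of these, 467 kept direction and side of the threshold, 99 lost the call, 13 gained it and 7 changed sign. The tally does not cover the weaker changes of the other genes named above.

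Of 24 same-number correlations of deviations from group means, 7 were over 0.1 (range -0.46 to 0.36). Pairs with different numbers were not computed, and the elaidic acid deviations hold the series difference. These correlations therefore do not decide whether replicate numbers pair the samples. With the replicate block the calls were 0 for elaidic acid against control (28 of all probes), 8 for stearic acid against control (5283) and 9 for oleic against stearic acid (7360). The other contrasts had 0.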
